A study of Mus musculus with 15 samples.

Results

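The transcription factors that divide sensory neurons into subtypes were followed in large neurons of mouse dorsal root ganglia, the clusters of sensory cell bodies beside the spinal cord. The 10 genes listed were Runx1, Runx3, Isl1, Isl2, Pou4f1, Pou4f2, Pou4f3, Etv1, Shox2 and Maf, taken by gene symbol. Of these, 9 were measured among 19938 genes tested, by 10 probe sets, because Etv1 had a pair of them. Pou4f2 was not analysed here. The sorted neurons came from C57BL/6 mice whose green fluorescent protein reporter reads out CGRP, calcitonin gene-related peptide, which many pain-sensing neurons make. They came from lumbar levels 2 to 5, were larger than 26.9 µm, and held a retrograde tracer given to the gastrocnemius muscle or the saphenous nerve 5 days before death. Each of the 5 groups had 3 biological replicates, 1 array each. CFA paw and saline paw neurons projected to skin, were CGRP-positive and came from mice given complete Freund's adjuvant (CFA, an inflammatory emulsion) or saline in the paw. CFA muscle, acid muscle and saline muscle neurons projected to muscle, were CGRP-negative and came from mice given CFA, acid or saline in the muscle. Skin or muscle target and CGRP status therefore changed together in this design and cannot be told apart. The reporter marks cells by the activity of one promoter, and the age and sex of the mice are not given in the sources used here.

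These factors act in a sequence. Isl1 and Pou4f1 (also known as Brn3a) are homeodomain proteins of nearly all newborn sensory neurons, and in mice they end the early neurogenic programme and open subtype programmes. Isl2, Pou4f2 and Pou4f3 are close relatives of them. Runx1 then sets the fate of nociceptors, above all the non-peptidergic ones, while Runx3 sets that of proprioceptors, the neurons that sense muscle stretch. Etv1 (Er81) is an ETS factor that proprioceptors need to connect to motor neurons, Shox2 is a homeodomain factor of touch neurons with the receptor TrkB, and Maf is a leucine zipper factor of rapidly adapting touch receptors.

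The start regions of these genes were read from RefSeq (GRCm38.p6), as windows of 250 bases before and 50 after each start. Pou4f3 was left out of this search, and Maf had no window. The 10 windows searched were of 7 of the genes, Runx1, Runx3, Isl1, Isl2, Pou4f1, Etv1 and Shox2. Of these windows 5 have their start inside the annotated span of the gene, 1 each of Runx1, Runx3, Isl2, Pou4f1 and Etv1, so the bases before those starts can be transcribed. In them 10 short motifs were searched on both strands, and the ones shown were chosen after the matches were seen. The RUNX core TGTGGT, which is ACCACA on the other strand, occurred in 3 of the 10 windows, of Etv1, Runx1 and Runx3, against 16.8% of all 32851 windows. The Etv1 match was a single one at position -192. In Runx1 and Runx3 it stood as a pair on 1 strand with first bases 8 apart, a layout found in 7 windows in all (0.0213%). That layout was itself picked from the matches, so its rarity is a description. The stretches that hold the pair are shown because Runx1 and Runx3 are the RUNX members whose levels are compared below, with ACCACA in capitals. The Runx1 stretch lies at chr16:92826025-92826054 (minus strand), from 21 to 50 bases into the transcript, and the Runx3 stretch at chr4:135120503-135120532 (plus strand), at positions -142 to -113 from the start.
Runx1: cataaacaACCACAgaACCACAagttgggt
Runx3: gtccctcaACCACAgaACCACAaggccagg

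Isl1 and Pou4f1 were called higher in paw neurons in the results below, and sequence of both is shown for that reason. The E-box CAGCTG, the 6 bases that basic helix-loop-helix proteins can bind, is in capitals. For Isl1 the 250 bases before the start are given, at chr13:116309689-116309938 (minus strand), with a GC content of 71.2%. The start of the Pou4f1 window lies 119 bases inside the annotated span of the gene, so its E-box is within that span, and only 30 bases around it are given, at chr14:104468100-104468129 (minus strand). The E-box stood in 2 of the 10 windows, against 16.3% of all windows, which is close to that share.
Isl1: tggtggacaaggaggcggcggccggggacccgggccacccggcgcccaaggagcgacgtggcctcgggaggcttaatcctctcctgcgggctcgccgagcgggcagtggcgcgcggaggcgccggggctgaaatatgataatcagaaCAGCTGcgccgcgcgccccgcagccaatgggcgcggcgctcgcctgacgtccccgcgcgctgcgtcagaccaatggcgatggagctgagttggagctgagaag
Pou4f1: gacagacggagaCAGCTGctgtctgtcagc

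Of the remaining motifs, the POU4 core ATTAAT matched none of the 10 windows, and it stood in 4.75% of all windows. The homeodomain core TAATTA, with a share of 5.29% over all windows, also matched 0 of the 10. So did the octamer ATGCAAAT, whose share was 1.74%. The ETS core CCGGAA, held by 14.9% of all windows, matched 1 window, of Runx1. The E-box variant CATCTG, with a share of 17.2%, matched 1 window, of Etv1. The TATA box, written TATAAA and held by 13.6% of all windows, matched 2, of Etv1 and Shox2. A MAF site, searched as TGCTGA and held by 19.5%, matched 3 windows, of Runx3, Isl2 and Etv1. The GC box, searched as GGGCGG and held by 35.7%, matched 4 windows, of Isl2, Pou4f1, Runx3 and Shox2.

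The arrays differed in ways that touch the results. One paw array, saline paw replicate 1, stood apart from the other 5: the mean log2 level of 7 pan-neuronal genes was 8.09 on it and 8.96 to 9.20 on the others, and the SD over genes was 1.42 against 1.66 to 1.80. On the 9 muscle arrays the pan-neuronal mean ran from 6.98 to 8.18 and the SD from 1.28 to 1.55. All 9 measured factors had a mean over the 15 arrays above the dim limit of 2.44, set at the 95th percentile of 1194 smell and pheromone receptor genes that these neurons are not known for. Of the 19938 genes tested, 6519 had a mean under that limit. The shares of all genes given below include those dim genes, so they are not shares of genes as bright as the factors.

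Levels below are log2 expression. They are not compared between genes, because probe sets differ in their response.

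**Figure D1:**
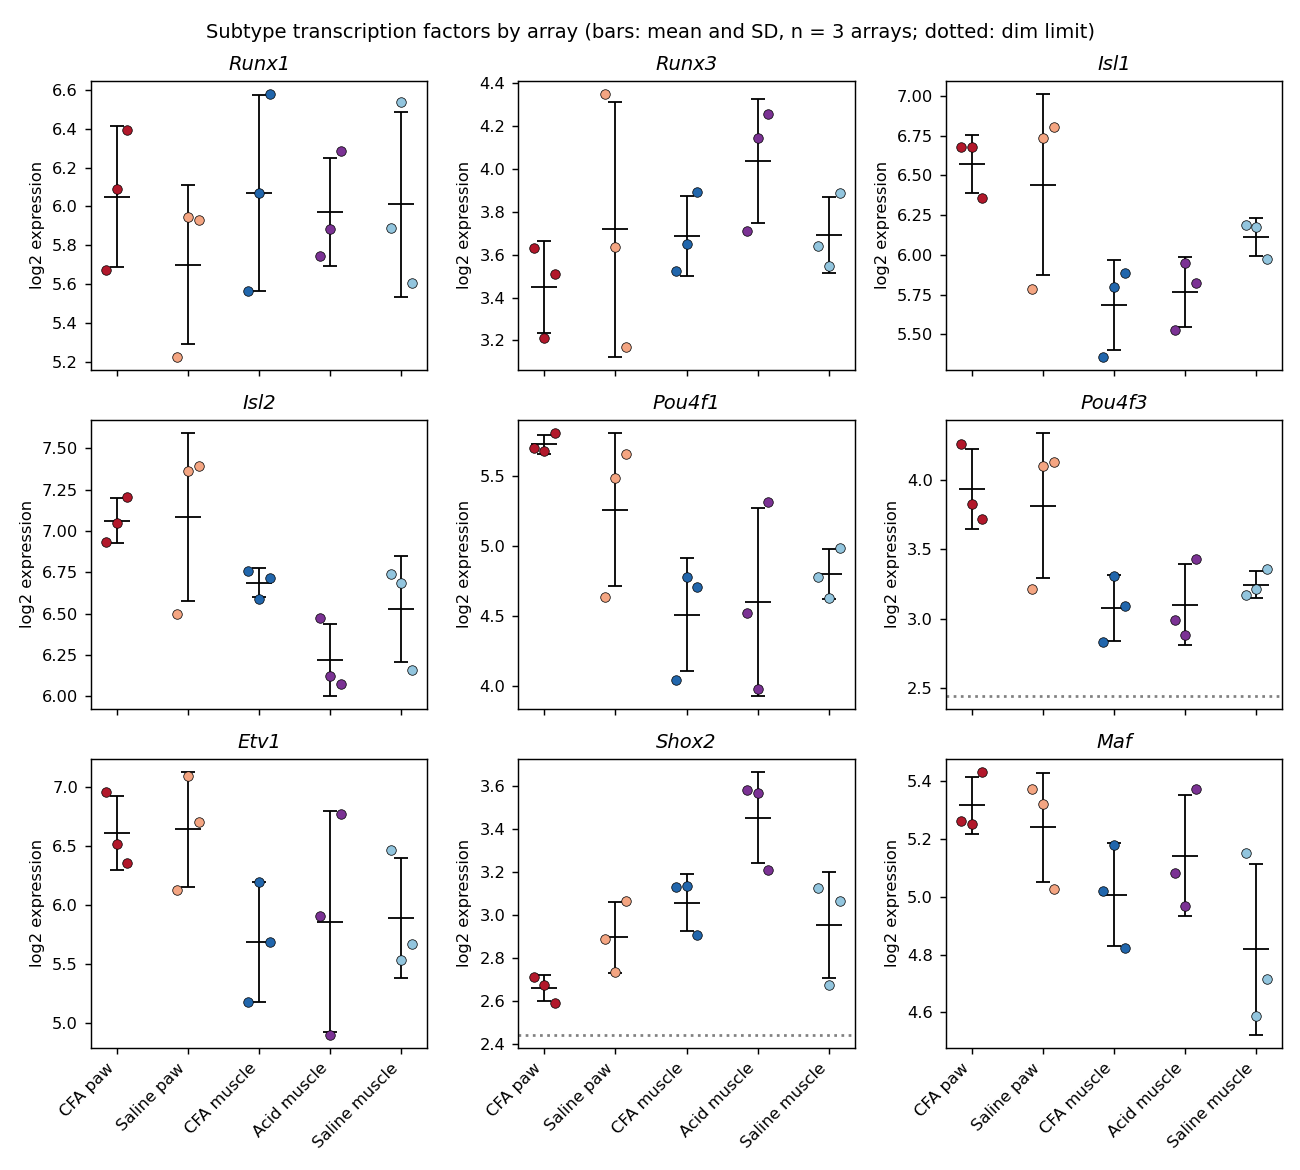
Log2 expression of each factor (vertical axis, 1 panel a gene, each with its own scale) on every array of the 5 groups (horizontal axis), with the group mean and SD (n = 3) and the dim limit dotted where it is in range. Isl1, Pou4f1 and Pou4f3 sit higher on 5 of the 6 paw arrays than on all 9 muscle arrays, and saline paw replicate 1 lies among the muscle arrays.

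Isl1, Pou4f1 and Pou4f3 were higher in paw than in muscle neurons over saline and CFA animals, and the other 6 factors did not pass the test. Pou4f1 was 1.79 times, Pou4f3 1.64 times and Isl1 1.53 times as high. Of the 9 factors 3 were called higher and 0 lower (limma, adjusted p under 0.05 over all genes), against 14.7% of all genes called in either direction, 11.6% called higher and 3.12% called lower. An unadjusted p under 0.05 was reached by 6 factors, against 30.3% of all genes. The paw and muscle arrays overlapped for all 9, whereas 4.37% of all genes were higher and 1.54% lower without overlap. The median difference of the 9 was 0.47 on the log2 scale, against -0.040 over all genes. That median depended on the scaling of the arrays. It was 0.057 with quantile normalization (0.00057 over all genes) and 0.075 with cyclic loess normalization (0.0035). With the array SD in the model it was 0.13 (0.040 over all genes), and with median centring 0.57 (0.059). All 3 calls were lost, and all 3 directions turned, when the pan-neuronal mean of each array was added to the model, a covariate chosen after seeing the data. The 3 values were then -0.49 for Pou4f1, -0.17 for Pou4f3 and -0.11 for Isl1. That fit called 1.37% of all genes. The covariate nearly separates the tissues: 8.96 to 9.20 on 5 paw arrays and 6.98 to 8.18 on the muscle arrays. Only saline paw replicate 1 (8.09) lay among the muscle values. The fit can therefore hardly tell the covariate from the paw and muscle difference, and no conclusion is drawn from the turned signs. Adding the array SD instead left 0 of the 9 called, against 4.34% of all genes, and quantile normalization left 1, against 8.79%.

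Pou4f1, the POU factor of nearly all sensory neurons, measured 5.70, 5.68 and 5.81 in CFA paw and 4.64, 5.49 and 5.66 in saline paw neurons. It measured 4.04, 4.78 and 4.71 in CFA muscle, 4.52, 3.98 and 5.31 in acid muscle and 4.78, 4.63 and 4.99 in saline muscle neurons. The CFA paw arrays were all above every muscle array, while the saline paw and saline muscle arrays overlapped through saline paw replicate 1. Paw minus muscle over saline and CFA was 0.84 (SE 0.222, limma adjusted p = 0.0208).

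Pou4f3, a relative best known for its part in hair cells of the inner ear, measured 4.26, 3.83 and 3.72 in CFA paw and 3.21, 4.10 and 4.13 in saline paw neurons. It measured 2.83, 3.31 and 3.09 in CFA muscle, 2.99, 2.88 and 3.43 in acid muscle and 3.17, 3.21 and 3.36 in saline muscle neurons. Of the 6 paw arrays 5 lay above all 9 muscle arrays. Paw minus muscle over saline and CFA was 0.71 (SE 0.168, limma adjusted p = 0.0114), and it passed with any 1 of the 12 arrays left out, where Pou4f1 passed in 8 and Isl1 in 6 of the 12 fits.

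Isl1 is the LIM-homeodomain factor that mature nociceptors go on expressing. It measured 6.68, 6.68 and 6.36 in CFA paw and 5.79, 6.73 and 6.80 in saline paw neurons. It measured 5.36, 5.80 and 5.89 in CFA muscle, 5.53, 5.95 and 5.82 in acid muscle and 6.19, 6.17 and 5.97 in saline muscle neurons. Saline paw replicate 1 again fell among the muscle arrays and the other paw arrays lay above all of them. Paw minus muscle over saline and CFA was 0.61 (SE 0.167, limma adjusted p = 0.0252).

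Isl2, Etv1 and Maf had positive differences that missed the threshold. Isl2 measured 6.93, 7.05 and 7.21 in CFA paw, 6.50, 7.36 and 7.39 in saline paw, 6.76, 6.59 and 6.72 in CFA muscle, 6.47, 6.12 and 6.07 in acid muscle and 6.74, 6.68 and 6.16 in saline muscle neurons. Its paw arrays other than saline paw replicate 1 were above all muscle arrays. Paw minus muscle over saline and CFA was 0.47 (95% interval 0.13 to 0.80, limma adjusted p = 0.0625), with the sign turned under cyclic loess (-0.11), quantile normalization (-0.077) and the pan-neuronal covariate (-0.085).

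The Etv1 probe set used in the tests (10406934) measured 6.96, 6.51 and 6.36 in CFA paw, 7.09, 6.70 and 6.13 in saline paw, 6.20, 5.69 and 5.18 in CFA muscle, 6.77, 5.90 and 4.90 in acid muscle and 6.47, 5.67 and 5.53 in saline muscle neurons, given from high to low within each group. The acid muscle arrays spanned the whole range of the muscle arrays. Its paw minus muscle difference was 0.83 (95% interval 0.21 to 1.46, limma adjusted p = 0.0693), and it was -0.15 with the array SD and -0.94 with the pan-neuronal mean in the model. The other Etv1 probe set (10395457) gave 0.57 (limma adjusted p = 0.0690 over 21789 probe sets), so both pointed the same way and neither passed.

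Maf ran from 5.03 to 5.43 in the 6 paw samples and from 4.59 to 5.37 in the 9 muscle samples, which overlap. Its difference over saline and CFA was 0.36 (95% interval 0.11 to 0.62, limma adjusted p = 0.0561).

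Runx1, Runx3 and Shox2 missed the threshold with values below 0. Runx1 measured 5.67, 6.09 and 6.39 in CFA paw, 5.23, 5.95 and 5.93 in saline paw, 5.57, 6.07 and 6.58 in CFA muscle, 5.74, 5.88 and 6.28 in acid muscle and 5.89, 6.54 and 5.61 in saline muscle neurons. All 5 groups overlapped, and paw minus muscle over saline and CFA was -0.16 (95% interval -0.62 to 0.29). Runx3 lay between 3.17 and 4.35 in paw, with saline paw replicate 1 the highest, and between 3.53 and 4.26 in muscle samples, with a difference of -0.11 (95% interval -0.48 to 0.27). Shox2 lay between 2.59 and 3.06 in paw and between 2.67 and 3.58 in muscle samples, all close to the dim limit, with a difference of -0.23 (95% interval -0.46 to 0.0060, limma adjusted p = 0.175). These intervals leave room for differences of either sign in all 3 genes.

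**Figure D2:**
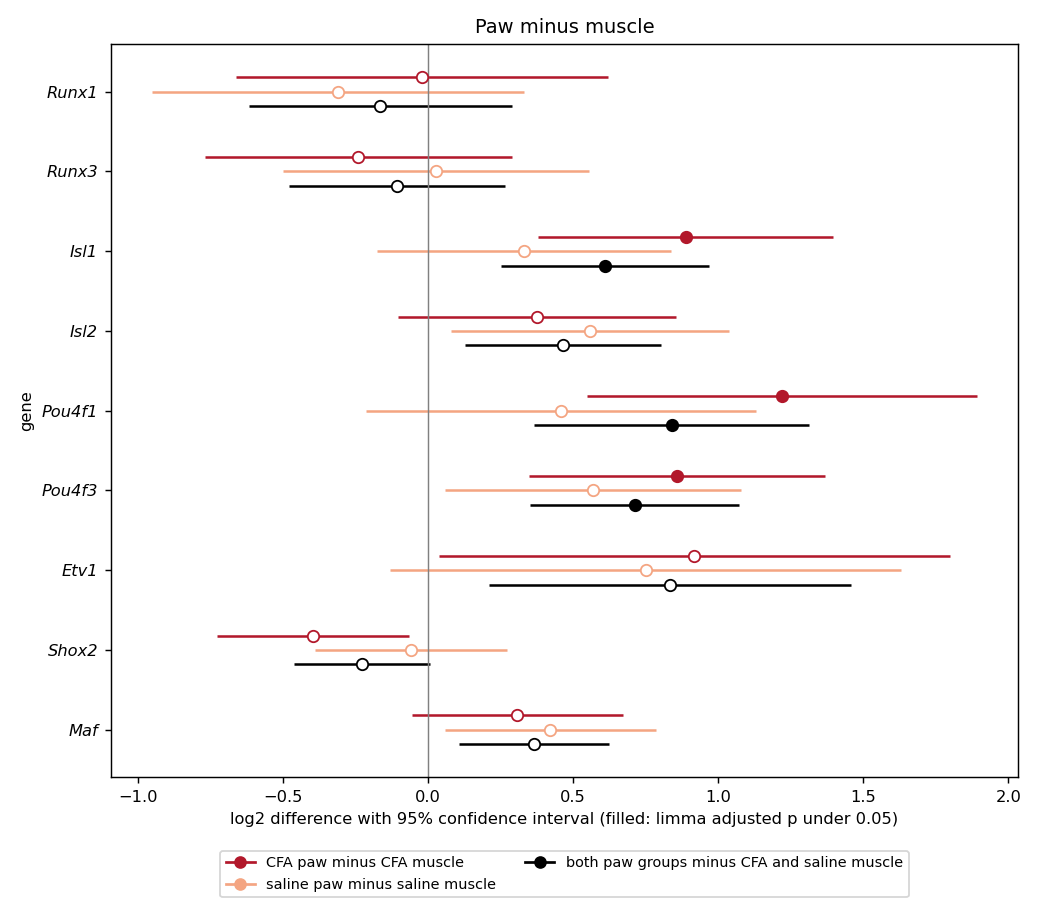
Log2 difference of paw minus muscle (horizontal axis) with its 95% interval for each of the 9 factors (vertical axis), in CFA animals, in saline animals and over both. Filled points passed an adjusted p of 0.05: Isl1, Pou4f1 and Pou4f3, in CFA animals and over both, and no factor in saline animals.

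In CFA animals alone the same 3 factors were called higher in paw neurons, Pou4f1 by 1.22 (SE 0.314, 2.33 times as high, limma adjusted p = 0.0317), Isl1 by 0.89 (SE 0.237, limma adjusted p = 0.0384) and Pou4f3 by 0.86 (SE 0.238, limma adjusted p = 0.0457). That was 3 of 9 factors, against 6.41% of all genes called in either direction and 5.75% called higher. Each of the 3 calls was lost on leaving out any 1 of the 6 arrays. Under the pan-neuronal covariate the value of Pou4f1 turned to -0.22 and that of Pou4f3 to -0.099. That covariate was 8.96 to 9.03 on the CFA paw and 7.15 to 7.54 on the CFA muscle arrays, so it does not overlap between them. The CFA paw and CFA muscle arrays did not overlap for 7 factors: 6 were higher in CFA paw (Isl1, Isl2, Pou4f1, Pou4f3, Etv1 and Maf), against 18.9% of all genes, and Shox2 was lower, against 17.1% of all genes. Shox2 measured 2.71, 2.68 and 2.59 in CFA paw and 3.13, 3.14 and 2.91 in CFA muscle neurons, a difference of -0.40 (SE 0.154, limma adjusted p = 0.153).

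In saline animals 0 of the 9 factors were called (limma, against 2.04% of all genes in either direction and 1.87% called higher). The groups overlapped for all 9, while 8.11% of all genes were higher and 7.06% lower without overlap. Of the factors, 3 had an unadjusted p under 0.05, against 16.9% of all genes. These were Isl2 (0.56, 95% interval 0.079 to 1.04), Pou4f3 (0.57, 0.058 to 1.08) and Maf (0.42, 0.057 to 0.79). Without saline paw replicate 1, 3 factors were called, Isl1, Isl2 and Pou4f3, against 19.2% of all genes in that fit. With array weights, which gave that array a weight of 0.148, 5 were called, against 37.0% of all genes. The test of whether the CFA effect differed between muscle and paw called 0 factors and 0 genes in all, so the calls in CFA animals are not shown to differ from the values in saline animals.

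The CFA muscle, acid muscle and CFA paw groups were set against saline to ask whether inflammation or acid changed these factors. No factor was called in any of these comparisons, and no gene of the 19938 was (limma, 0% in each). With array weights 125 genes, none of them a factor, were called in CFA paw against saline paw. At an unadjusted p under 0.05, limma gave 241 genes (1.21%) when CFA paw was set against its saline group, 518 (2.60%) for CFA muscle, 568 (2.85%) for acid muscle and 626 (3.14%) between both treated muscle groups. Of the factors, Shox2 alone was among them, for acid muscle and between both treated muscle groups. Both muscle comparisons share the saline muscle arrays.

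Shox2 had the smallest p of the factors in acid muscle against saline muscle. It measured 3.58, 3.57 and 3.21 in acid muscle and 3.13, 2.67 and 3.07 in saline muscle neurons, which do not overlap (3.98% of all genes were higher without overlap). The difference was 0.50 (95% interval 0.17 to 0.83, unadjusted p = 0.00594, limma adjusted p = 1.00). CFA muscle minus acid muscle was -0.39 for Shox2 (95% interval -0.72 to -0.064), again without overlap and against 5.23% of all genes lower in that way. In CFA paw against saline paw, Shox2 was lower without overlap (-0.24, 95% interval -0.57 to 0.095, against 2.99% of all genes). Pou4f1 was higher without overlap there (0.47, -0.20 to 1.14, against 1.73% of all genes).

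Isl1 gave lower values without overlap in both muscle comparisons with saline. CFA muscle minus saline muscle was -0.43 (95% interval -0.93 to 0.079), against 4.10% of all genes lower in that way, and no factor was higher without overlap, against 3.63%. Acid muscle minus saline muscle was -0.34 (-0.85 to 0.16), against 2.94% of all genes. Isl2 was higher without overlap in CFA muscle than in acid muscle neurons (0.47, 95% interval -0.012 to 0.95, against 2.92% of all genes). For Runx1, Runx3, Pou4f3, Etv1 and Maf every interval of these 4 comparisons included 0.

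**Figure D3:**
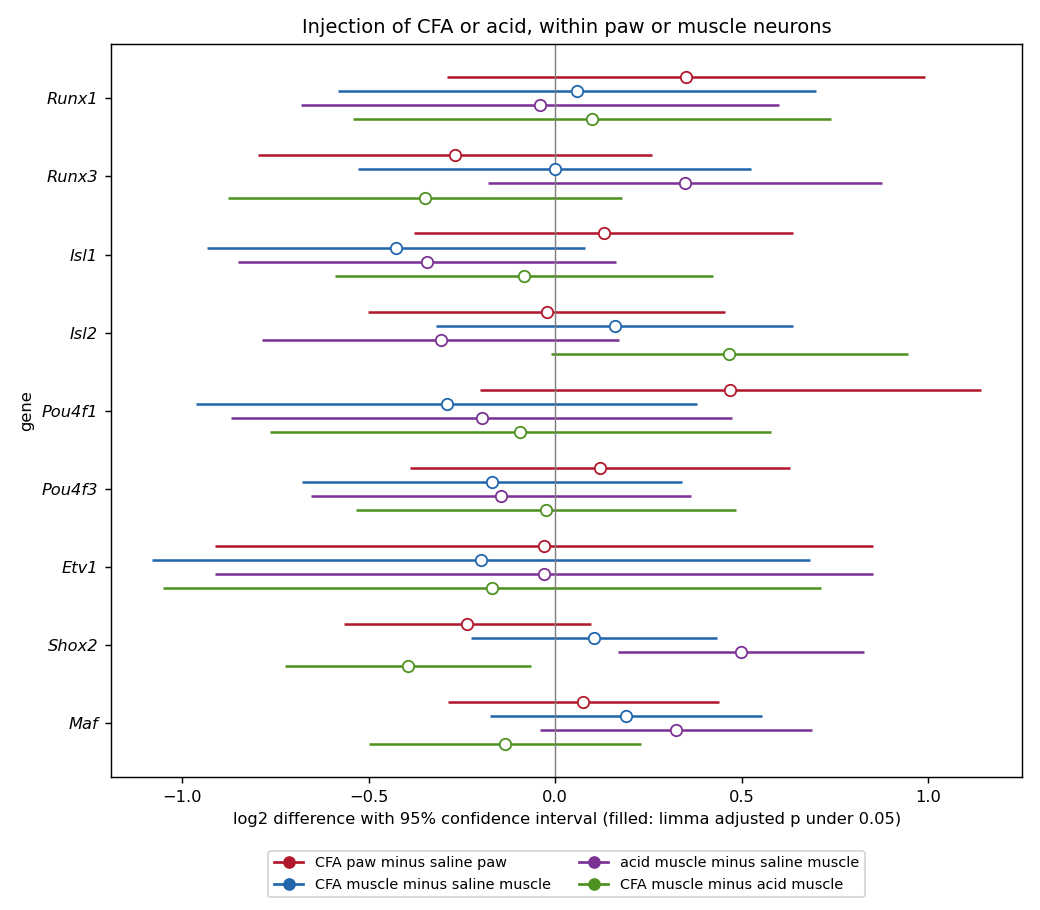
Log2 difference (horizontal axis) with its 95% interval for each factor (vertical axis) in CFA paw minus saline paw, CFA muscle minus saline muscle, acid muscle minus saline muscle and CFA muscle minus acid muscle. All points are open because no difference passed an adjusted p of 0.05, and the intervals that exclude 0 are those of Shox2 in acid muscle minus saline muscle (0.50) and CFA muscle minus acid muscle (-0.39).

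The other factors of these pathways were described from lists. Beside each count below stand 14.7% of all genes called in paw minus muscle over saline and CFA, and a median over all genes of -0.040. Of 23 measured specification and pan-sensory factors, 5 rose and 0 fell, with a list median of 0.069. Klf7, a zinc finger factor that maintains TrkA expression, averaged 8.66 in paw and 7.19 in muscle neurons, a difference of 1.47 (limma adjusted p = 0.000458). Ebf1 rose by 1.32, Zeb2 by 1.26, Six4 by 1.26 and Onecut2 by 1.21.

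Of 25 other subtype factors 8 rose and 0 fell, with a list median of 0.22. Nfib, a nuclear factor I protein, averaged 5.98 in paw and 4.02 in muscle neurons, a difference of 1.97, and its relative Nfia differed by 1.92. Etv5, an ETS factor like Etv1, rose by 1.39 (SE 0.170, limma adjusted p = 0.000151). Bcl11a rose by 0.90, Zfhx2, a factor tied to pain sensitivity, by 0.77, Hoxd1, a homeobox factor of mouse nociceptors, by 0.61, Tshz2 by 0.60 and Creb5 by 0.53.

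Of 22 cofactors of RUNX, ISL and POU4 proteins 6 rose and 1 fell, with a list median of 0.18. Cbfb, the partner subunit that RUNX proteins need to bind DNA well, averaged 6.25 in paw and 5.58 in muscle neurons (0.66, limma adjusted p = 0.0210). Ldb1, which links LIM-homeodomain proteins such as Isl1 into complexes, rose by 0.72, and Ssbp2, which stabilises Ldb1, by 0.61. Runx1t1 rose by 1.02, the corepressor Tle4 by 0.96 and the kinase Hipk1 by 0.88. Rest, the repressor of neuronal genes, fell by 0.59, with a paw mean of 2.30 that lies under the dim limit and a muscle mean of 2.89.

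**Figure D4:**
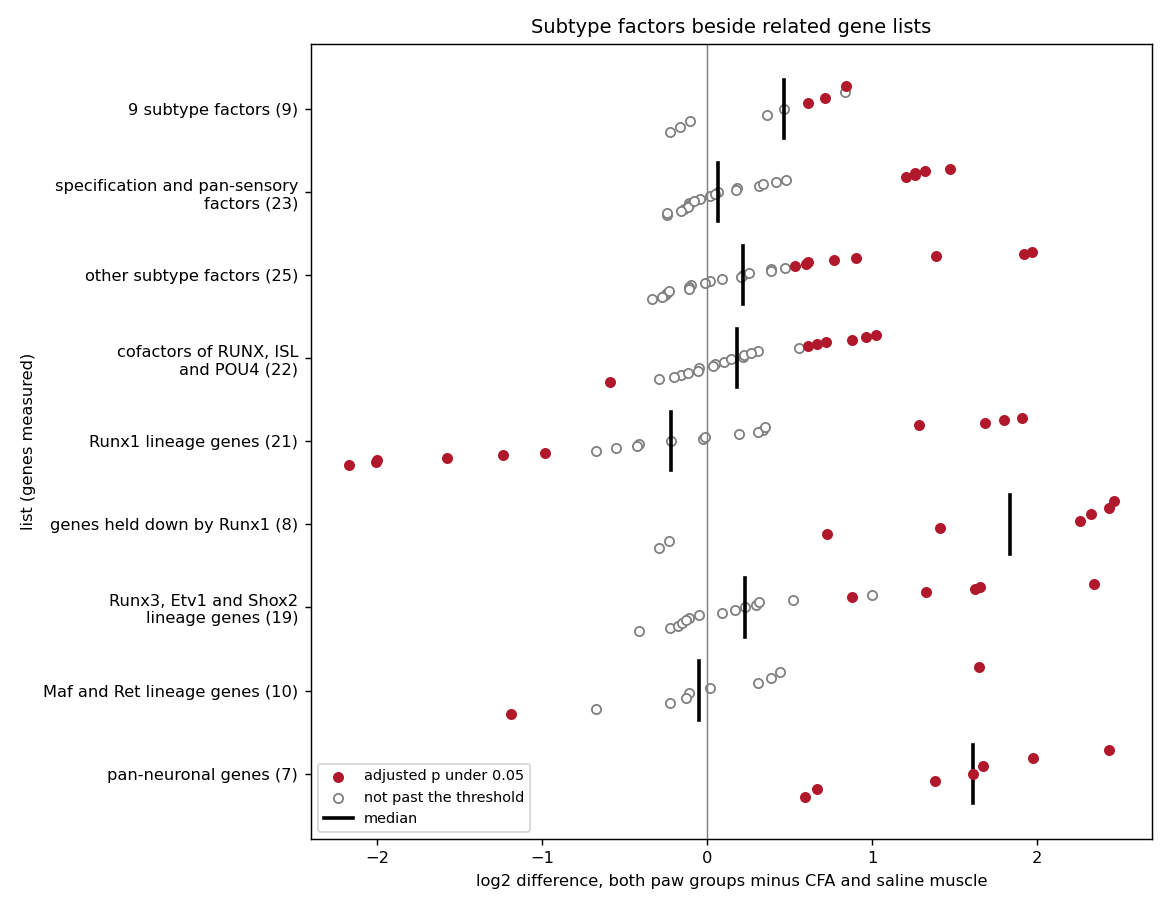
Log2 difference of paw minus muscle over saline and CFA (horizontal axis) for each measured gene of the factors and of the related lists (vertical axis), filled where adjusted p was under 0.05, with the median of each list as a bar. With the values as deposited, the 9 factors have a median of 0.47 (0.057 with quantile normalization). The 8 genes listed as held down by Runx1 have one of 1.84 and the 7 pan-neuronal genes one of 1.61.

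Genes of the lineages that these factors direct moved in both directions. Of 21 genes of Runx1 nociceptors, 4 rose and 6 fell, with a list median of -0.22, while Runx1 itself gave -0.16. Mrgprd, the receptor of non-peptidergic skin nociceptors, averaged 5.31 in paw and 7.31 in muscle neurons and fell by 2.00. Grik1, a kainate receptor subunit, fell by 2.17, and the differences were -2.01 for Prkcq, -1.58 for Tmem45b, -1.24 for Dpp10 and -0.98 for Lpar3, all called lower. Trpv1, the capsaicin receptor, rose by 1.91, the itch receptors Mrgprx1 and Mrgpra3 by 1.80 and 1.68, and the sodium channel Scn10a by 1.29. Under the pan-neuronal covariate 0 genes of the list were higher and 8 lower, against 0.201% of all genes higher and 1.17% lower in that fit.

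Of 8 genes listed here as held down by Runx1 in non-peptidergic neurons of mice, 6 rose, with a list median of 1.84. They were Gfra3 (2.47), Adcyap1 (2.44), Tac1 (2.33), Gal (2.26, from a muscle mean of 2.42 at the dim limit), Calcb (1.41) and Oprm1 (0.73). Several are peptides of CGRP-positive neurons, which the sort selected by the reporter, so their rise is not a finding about Runx1. All 5 measured markers of CGRP-positive nociceptors rose, Calcb, Tac1, Adcyap1, Gfra3 and Kit. Of these, all but Kit are also among the genes listed as held down by Runx1.

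Of 19 genes of Runx3, Etv1 and Shox2 neurons 5 rose and 0 fell, with a list median of 0.23. Nefh, the heavy neurofilament of myelinated neurons, averaged 10.88 in paw and 9.22 in muscle neurons (1.66), Nefl rose by 1.63, Tafa1 by 2.35, Ntrk3, the TrkC receptor of proprioceptors, by 1.32 and Cntnap2 by 0.88. Of 10 genes of Maf and Ret touch receptors, Crip2 rose by 1.65 and Rasgrp1 fell by 1.19. Under the pan-neuronal covariate 0 genes rose in either list.

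Several list counts depended on the covariates and on saline paw replicate 1, and so did the share of all genes called. With the array SD in the model, where 2.16% of all genes were higher and 2.18% lower, 1 specification factor, 6 other subtype factors, 0 cofactors and 5 genes listed as held down by Runx1 were higher. With the pan-neuronal mean, where 0.201% of all genes were higher, these counts were 0, 0, 0 and 2. Without saline paw replicate 1, where 20.0% of all genes were higher and 12.6% lower, 4 Maf and Ret genes were higher and 3 lower, and 11 other subtype factors were higher and 4 lower.

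Some markers of other cell types and the pan-neuronal genes moved with the same comparison. Whether the amount of neuronal RNA differed was not tested. All 7 pan-neuronal genes rose, by 0.60 (Avil) to 2.44 (Rbfox3), with a median of 1.61, which is more than any of the 9 factors differed. Of 8 Schwann cell markers 3 fell (Cldn19, Ncmap and Mag), and the mean level of the list was 4.41 to 4.66 on the paw arrays and 4.53 to 5.74 on the muscle arrays. Of 9 satellite glia markers 0 were called, with list means of 5.28 to 5.80 on the paw arrays and 5.24 to 5.78 on the muscle arrays. Of 11 endothelial and mural markers 1 fell (Acta2), with list means of 2.85 to 3.27 on the paw arrays and 3.14 to 3.93 on the muscle arrays. Of 8 fibroblast markers 1 fell (Apod), of 8 skeletal muscle markers 1 (Myh2) and of 11 lymphocyte markers 1 (Cd3g), with list medians of -0.23, -0.33 and -0.19. None of 13 macrophage, 10 neutrophil and 2 erythroid markers was called (limma). A mean under the dim limit was found for 9 of the macrophage, 7 of the neutrophil and 9 of the 11 lymphocyte markers. Among markers of other sensory neurons, 4 of 8 of itch neurons fell (Nppb, Sst, Il31ra and Cysltr2), with a list median of -0.57 and list means of 3.32 to 3.56 on the paw arrays and 3.66 to 4.39 on the muscle arrays. Of 8 non-peptidergic markers 2 rose and 3 fell, and of 10 markers of large myelinated neurons 4 rose and 0 fell. These lists share genes with the lineage lists above, so the counts are not separate. Mrgprd, Lpar3, Mrgprx1 and Mrgpra3 are also in the Runx1 list. Nefh, Nefl, Ntrk3 and Cntnap2 are also in the list of Runx3, Etv1 and Shox2 neurons. In sorted samples of this kind, fewer cells of a type and less RNA per cell cannot be told apart. The part of these lists in the differences of the factors was not tested beyond the pan-neuronal covariate.

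Within the 9 muscle arrays, where target and CGRP status are the same, the factors were set against the pan-neuronal mean. Of 9 relations, 1 passed after adjustment. The share of all genes with such a relation was not computed, so it is not shown to be particular to a factor. The pan-neuronal mean also ran with the SD over genes on these arrays. Acid muscle replicate 2 was lowest in both (6.98 and 1.28) and acid muscle replicate 3 highest in both (8.18 and 1.55). The tested Etv1 probe set (10406934) gave Pearson r = 0.92 (exact permutation p = 0.000361, adjusted over 9 relations 0.00325, Spearman rho = 0.92, exact permutation p = 0.00131). Without acid muscle replicates 2 and 3, the arrays farthest from the median, its r was 0.83 over 7 arrays. The other Etv1 probe set (10395457), added after seeing the data, gave r = -0.0071 (unadjusted exact permutation p = 0.986, rho = 0.017) and 0.80 without those 2 arrays. The relation is therefore that of 1 probe set over the 9 arrays, and the probe sets differ on those 2. Pou4f1 gave r = 0.79 (exact permutation p = 0.0122, adjusted 0.0551; rho = 0.75), and 0.40 without those 2 arrays. Pou4f3 gave r = 0.67 (adjusted exact permutation p = 0.131, rho = 0.65) and 0.29 without them. Those 2 arrays hold the lowest and highest pan-neuronal mean of the 9, and a narrower range can by itself lower r. No conclusion is therefore drawn from the lower values. Maf gave 0.58 (adjusted exact permutation p = 0.224, rho = 0.58), and 0.36 without those 2 arrays. Runx1 gave 0.48 (adjusted exact permutation p = 0.351, rho = 0.63), and 0.48 without them. Runx3 (0.25), Isl1 (0.22), Isl2 (-0.033) and Shox2 (-0.23) had adjusted exact permutation p of 0.637 to 0.937 and rho of 0.13, 0.18, 0.00 and -0.13. Without the 2 arrays their r was -0.084, 0.61, 0.48 and -0.13. The arrays are of 3 groups, too few for a value within each.

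**Figure D5:**
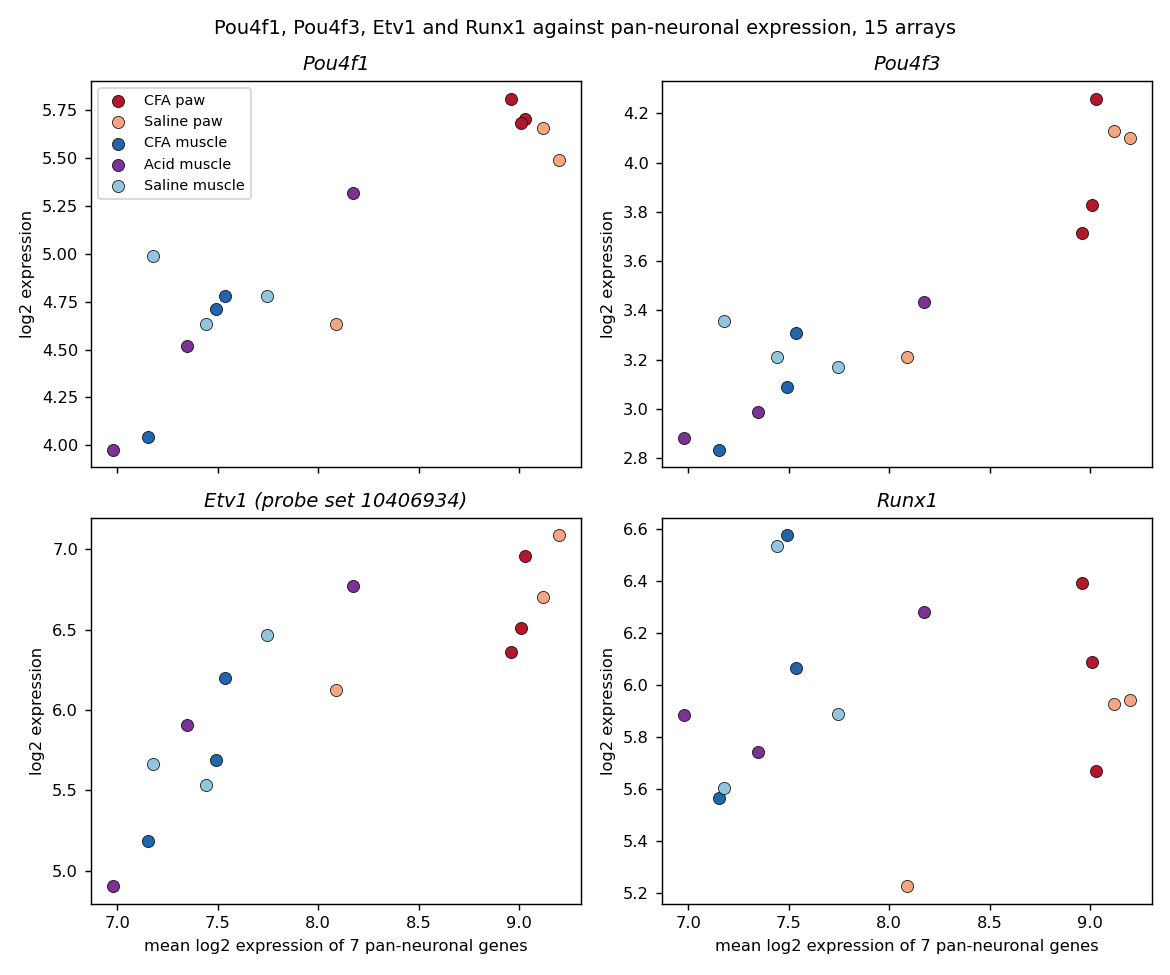
Log2 expression of Pou4f1, Pou4f3, Etv1 and Runx1 (vertical axes) against the mean log2 expression of 7 pan-neuronal genes (horizontal axis) on the 15 arrays, coloured by group, with probe set 10406934 for Etv1. The paw arrays other than saline paw replicate 1 (8.09) lie between 8.96 and 9.20 on the horizontal axis, and the 9 muscle arrays between 6.98 and 8.18, along which this probe set of Etv1 gave r = 0.92 and the other, not drawn, -0.0071.

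Genes with the pattern most like each factor over the 15 arrays were found by Pearson r. This is a description, since all genes share the split of the arrays between paw and muscle and their differences in pan-neuronal mean. Pou4f3 was most like S100a10 (r = 0.97), Isl1 like Kif3c (0.96), Pou4f1 like Ftl1 (0.96) and Etv1 like Tmem47 (0.96) and the neurofilament Nefm (0.95). Isl2 was most like Bbs4 (0.95), Runx3 like Rph3al (0.94), Runx1 like Arhgap26 (0.91), Shox2 like Kremen1 (0.88) and Maf like Anapc11 (0.82).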

How the data were processed

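RNA of sorted mouse sensory neurons was measured on 15 Affymetrix whole-transcript arrays, with 50 ng of RNA amplified per sample per the labels' protocols. Each deposited value is the log2 level of a probe set. RMA and Partek appear in the submitters' processing notes without versions. The log base is not stated and was taken from the range of the values, which were used as deposited. Of 35556 probe sets, 21789 had 1 gene symbol, 1621 had several and 12146 were not listed in the probe table. Each gene was represented by its probe set with the highest mean, which left 19938 genes. A linear model of 5 group means was fitted to all arrays in R 4.3.3 with limma 3.58.1 with moderated variances (10 residual degrees of freedom), two-sided tests and Benjamini-Hochberg adjustment over all genes at 0.05. It was also run on simulated data with independent noise per gene and array. Those data held no array-wide shift and no outlying array, so that run cannot speak to such features of these arrays. Groups came from the sample titles. The number of arrays limits the precision.

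The members and lists were chosen with earlier results of these data known. Named genes are all members, list genes past the threshold, and the genes most correlated with each member. The alternatives were 3 further normalizations, the array SD or the pan-neuronal mean as a covariate, removal of dim genes, array weights, fits limited to the compared groups, a robust prior with an intensity trend, averaged probe sets, a threshold of 0.1, the replicate block and each array left out. The covariate of the pan-neuronal mean was added after seeing the data and nearly separates paw from muscle arrays. Maf had no window in the table of gene starts, and the window of Pou4f3 was not used here.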

Additional observations from a re-analysis of the deposited data

How the results depend on the processing

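No factor was called in saline paw minus saline muscle, and 5 were with array weights and 0 to 3 with 1 array left out (3 without saline paw replicate 1). The share of all genes called was 37.0% with array weights and 19.2% without saline paw replicate 1. In CFA paw minus CFA muscle 3 were called. That count was 1 with median centring, 0 with quantile normalization, 0 with the array SD as a covariate, 5 with only the arrays compared, 0 with the pan-neuronal mean as a covariate and 0 to 0 with each array left out. Of all genes, 3.83% were called with quantile normalization, 2.23% with the array SD and 16.1% with only the arrays compared. With the pan-neuronal mean 0.386% were called, and median centring gave 1023 genes higher and 60 lower. In paw minus muscle over saline and CFA 3 were called. That count was 1 with quantile normalization, 0 with the array SD, 7 with array weights, 6 at an adjusted p under 0.1, 0 with the pan-neuronal mean and 1 to 5 with each array left out. It was 5 without saline paw replicate 1 or saline muscle replicate 1, and 1 without saline paw replicate 2, saline paw replicate 3 or CFA muscle replicate 1. These counts hold calls in either direction. Among the 12 alternatives that keep all arrays, Runx1 and Runx3 were each called in 1, as lower in paw neurons. Their lowest limma adjusted p were 0.0467 and 0.0362. The share of all genes called was 8.79% with quantile normalization, 4.34% with the array SD and 45.8% with array weights. That share was 1.37% with the pan-neuronal mean and 32.6% without saline paw replicate 1. In the other 5 comparisons 0 factors were called under every alternative. Over all genes, 407 were called in saline animals (0 to 7379 over the alternatives), 1279 in CFA animals (77 to 4054) and 2926 over both (274 to 9139), the highest with array weights. Genes over both split into 2304 higher and 622 lower, and into 431 higher and 435 lower once array SD was a covariate. With the replicate number as a block, 2 factors were called in CFA animals, 3 over both and 0 in the other comparisons. The share of all genes is not given for the block or the threshold of 0.1. Nor is it given where an array other than saline paw replicate 1 was left out. A change in those counts is therefore not read as particular to the factors. Same-numbered arrays of different groups correlated between -0.53 and 0.34, with 10 of 30 pairs above 0.1, so the numbers were not taken to pair the samples. What caused these changes was not tested.

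The sign of a factor's difference changed in 63 of 864 values under the alternatives that keep all arrays and in 53 of 540 with 1 array left out. In 5 of these the main value had been called, all under the pan-neuronal mean as a covariate (Pou4f1 and Pou4f3 in CFA animals, and Isl1, Pou4f1 and Pou4f3 over both). In the rest neither value was called. Median centring gave 0.031 for Shox2 in saline paw minus saline muscle. It gave 0.089 for Runx1 in CFA paw minus CFA muscle. It gave 0.0073 for Isl2 in CFA paw minus saline paw. It gave 0.0084 for Runx3 in CFA muscle minus saline muscle. It gave 0.010 for Pou4f3 in CFA muscle minus acid muscle. Cyclic loess gave -0.014 for Runx3, -0.10 for Isl1 and 0.012 for Shox2 in saline paw minus saline muscle. It gave -0.25 for Isl2 in CFA paw minus CFA muscle. It gave -0.11 for Isl2 in paw minus muscle over saline and CFA. It gave 0.0066 for Etv1 in acid muscle minus saline muscle. It gave 0.020 for Pou4f3 in CFA muscle minus acid muscle. Quantile normalization gave -0.11 for Isl1 and 0.012 for Shox2 in saline paw minus saline muscle. It gave -0.22 for Isl2 and -0.059 for Maf in CFA paw minus CFA muscle. It gave -0.077 for Isl2 in paw minus muscle over saline and CFA. It gave -0.0048 for Maf in CFA paw minus saline paw. It gave 0.023 for Pou4f3 in CFA muscle minus acid muscle. The array SD as a covariate gave -0.089 for Isl1, -0.19 for Pou4f1, -0.15 for Etv1 and 0.020 for Shox2 in saline paw minus saline muscle. It gave 0.17 for Runx3, -0.075 for Isl2 and -0.15 for Etv1 in CFA paw minus CFA muscle. It gave 0.27 for Runx3 and -0.15 for Etv1 in paw minus muscle over saline and CFA. It gave 0.0031 for Etv1 in the difference of the CFA effects (muscle minus paw). Array weights gave -0.39 for Runx3 and 0.14 for Shox2 in saline paw minus saline muscle. They gave 0.18 for Runx3, -0.17 for Isl1 and -0.16 for Pou4f3 in CFA paw minus saline paw. They gave -0.0012 for Runx1 and 0.091 for Runx3 in CFA muscle minus saline muscle. They gave 0.14 for Etv1 in acid muscle minus saline muscle. They gave 0.086 for Isl1 and 0.034 for Pou4f3 in CFA muscle minus acid muscle. They gave -0.090 for Runx3, 0.062 for Pou4f3, 0.044 for Etv1 and -0.018 for Maf in the difference of the CFA effects (muscle minus paw). The mean of all probe sets gave 0.074 for Etv1 in acid muscle minus saline muscle. The pan-neuronal mean as a covariate gave -0.33 for Isl1, -0.75 for Pou4f1, -0.24 for Pou4f3, -0.87 for Etv1 and 0.13 for Shox2 in saline paw minus saline muscle. It gave 0.24 for Runx3, -0.22 for Isl2, -0.22 for Pou4f1, -0.099 for Pou4f3 and -1.01 for Etv1 in CFA paw minus CFA muscle. It gave 0.33 for Runx3, -0.11 for Isl1, -0.085 for Isl2, -0.49 for Pou4f1, -0.17 for Pou4f3 and -0.94 for Etv1 in paw minus muscle over saline and CFA. It gave 0.0031 for Pou4f1 and 0.040 for Pou4f3 in CFA muscle minus acid muscle. It gave 0.14 for Etv1 in the difference of the CFA effects (muscle minus paw).

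Where leaving out 1 array changed a sign, the lowest and highest values over the arrays left out follow. Saline paw minus saline muscle had -0.29 and 0.30 for Runx3 and -0.20 and 0.027 for Shox2. CFA paw minus CFA muscle had -0.27 and 0.23 for Runx1. Paw minus muscle over saline and CFA had -0.26 and 0.031 for Runx3. CFA paw minus saline paw had -0.31 and 0.13 for Isl2, -0.18 and 0.28 for Pou4f3, -0.29 and 0.19 for Etv1, -0.54 and 0.047 for Runx3, -0.20 and 0.31 for Isl1 and -0.031 and 0.14 for Maf. CFA muscle minus saline muscle had -0.10 and 0.097 for Runx3, -0.45 and 0.090 for Etv1, -0.19 and 0.32 for Runx1, -0.037 and 0.19 for Shox2 and -0.024 and 0.27 for Isl2. Acid muscle minus saline muscle had -0.24 and 0.22 for Runx1, -0.55 and 0.12 for Pou4f1 and -0.49 and 0.45 for Etv1. CFA muscle minus acid muscle had -0.20 and 0.078 for Isl1, -0.41 and 0.26 for Pou4f1, -0.14 and 0.14 for Pou4f3, -0.65 and 0.29 for Etv1 and -0.15 and 0.35 for Runx1. The difference of the CFA effects (muscle minus paw) had -0.42 and 0.12 for Etv1, -0.049 and 0.54 for Runx3, -0.45 and 0.012 for Pou4f3, -0.0013 and 0.28 for Maf and -0.0023 and 0.47 for Isl2.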
